A study of Homo sapiens with 24 samples.

Results

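The genes MDM2, MDM4, PPM1D and CCNG1, which form the feedback loop that restrains p53, were followed in LNCaP cells after siRNA against either of the long non-coding RNAs TAPIR-1 and TAPIR-2. LNCaP is an established prostate cancer line that carries wild-type p53. A member was any array probe whose RefSeq accession belonged to 1 of these 4 genes, out of 20992 RefSeq genes named on the arrays used at 24 h and 22439 on those used at 48 h. This gave 12 member probes at 24 h and 10 at 48 h. All cells were grown in RPMI-1640 medium with serum and were electroporated with a negative control duplex (scramble), with si-A1 against TAPIR-1 or with si-A2 against TAPIR-2, and total RNA was taken after 24 h or 48 h. Each of the 6 groups held 4 biological replicates, and 23 of the 24 one-colour Agilent arrays were used. The 48 h si-A2 replicate 2 was left out because its array was dim, with a median intensity of 13.9 against 20.4 to 32.2 on the others of that time point. Each lncRNA was silenced with 1 siRNA on these arrays, so the sequence of the siRNA and the loss of its target cannot be told apart.

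p53 is kept low in unstressed cells by genes that it activates itself. MDM2 is the ubiquitin ligase that marks p53 for destruction, and MDM4 is its relative that covers the activation domain of p53. PPM1D encodes the phosphatase WIP1, which removes the phosphates that damage kinases place on p53 and MDM2. CCNG1 encodes cyclin G1, which brings the phosphatase PP2A to MDM2. When p53 is released, RNA of MDM2, PPM1D and CCNG1 typically rises with that of effectors such as CDKN1A, and the loop then pulls p53 down again. The arrays measured RNA, not p53 protein, and RNA came from whole cultures, so fewer cells of a kind and less RNA per cell cannot be told apart.

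MDM2 lies at chr12:68808172-68850686, MDM4 at chr1:204516406-204558120, PPM1D at chr17:60600193-60666280 and CCNG1 at chr5:163437571-163457640 in GRCh38.p14. MDM2 has an upstream start and a start inside its first intron that is known to answer to p53. The windows of 250 bases before to 50 after the RefSeq starts were searched for the p53 half-site consensus, which reads the same on both strands. These windows are shown because the MDM2 intronic start and the CCNG1 start were the windows among the members in which 2 half-sites with at most 1 mismatch each stood within 13 bases of each other. Capitals mark half-sites with 1 mismatch, and where 2 such half-sites touch they form 1 run of capitals. Both sequences are on the + strand, 5′ to 3′, from RefSeq:
MDM2, chr12:68808767-68809066: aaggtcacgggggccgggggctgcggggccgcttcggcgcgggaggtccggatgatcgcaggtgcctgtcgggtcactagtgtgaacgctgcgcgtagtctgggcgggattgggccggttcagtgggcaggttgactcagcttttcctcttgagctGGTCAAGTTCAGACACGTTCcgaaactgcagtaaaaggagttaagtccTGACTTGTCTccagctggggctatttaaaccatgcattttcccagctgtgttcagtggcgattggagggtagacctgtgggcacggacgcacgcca
CCNG1, chr5:163437321-163437620: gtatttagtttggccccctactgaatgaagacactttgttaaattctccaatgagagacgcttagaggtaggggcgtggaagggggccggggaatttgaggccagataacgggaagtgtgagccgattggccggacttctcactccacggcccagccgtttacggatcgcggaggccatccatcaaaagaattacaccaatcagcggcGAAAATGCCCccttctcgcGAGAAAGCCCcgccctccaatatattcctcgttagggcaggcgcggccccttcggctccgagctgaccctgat
The MDM2 window held 3 such half-sites and the CCNG1 window 2. The core of the consensus is a C, 2 bases that are A or T, and a G. In each CCNG1 half-site the mismatch fell on the C of that core. Among the MDM2 half-sites the outer ones kept the core and the middle one did not. The upstream MDM2 window and the PPM1D window each held 1, and the MDM4 window held 0. No member window held an exact half-site, which 6.63% of the 35116 RefSeq windows of this length held. A half-site with at most 1 mismatch was common, in 63.7% of windows, and a pair as described was in 5.25%. These letters are a description and not a measured binding site.

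The arrays differed between time points in design version, so levels of 24 h and 48 h were not compared, and a level of 1 probe was not set against that of another. Median intensity lay between 24.4 and 57.2 over the 12 arrays of 24 h. Between 58.5% and 71.7% of probes were well above background at 24 h and between 60.3% and 66.5% at 48 h. All 7 luminal prostate markers checked, among them KLK2 and TMPRSS2, were well above background on all arrays of both time points, as were 3 of 7 markers of other cell types at 24 h and 2 of 7 at 48 h, among them the leukocyte genes PTPRC and CD3E at both times. KRT5, a basal cell keratin, was well above background on no array, and COL1A1, a fibroblast collagen, on 3 of 12 at 24 h and 0 of 11 at 48 h. The TAPIR-2 probe A_19_P00318461 read 5.03 ± 0.19 in scramble, 4.64 ± 0.32 after si-A1 and 4.07 ± 0.74 after si-A2 at 24 h (log2, SD, n = 4), and was well above background on only 2 of the 4 si-A2 arrays. At 48 h it read 4.64 ± 0.59, 4.83 ± 0.81 and 4.69 ± 0.90, the last with n = 3, so the groups overlapped and the probe did not check the knockdown there. A second TAPIR-2 probe, A_22_P00019831, was matched at 48 h only. It read 2.52, 1.75 and 2.00 in scramble, si-A1 and si-A2 cells and was well above background on no array. No probe was matched to TAPIR-1. Each siRNA always occupied the same column of its slide, so column and siRNA cannot be told apart, but each of the 2 slides of a time point held all 3 siRNAs.

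All member probes were well above background on every array used and none was saturated, so no member was lost to the filter on dim probes. Values below are log2 intensities after quantile normalization, and a difference was called at an adjusted p under 0.01 and a log2 change of at least 0.5 in limma. Against scramble, 0 of 12 member probes were called after si-A1 at 24 h, where 1.1% of all tested probes were, and 1 of 12 after si-A2, where 0.947% were. At 48 h, 1 of 10 was called after si-A1 beside 6.15% of all probes, and 0 of 10 after si-A2 beside 0.425%. Between si-A2 and si-A1, 0 of 12 were called at 24 h beside 0.381% of all probes and 0 of 10 at 48 h beside 1.45%. Both calls were of CCNG1 and in the upward direction. At an unadjusted p under 0.05, 2 and 3 of 12 probes at 24 h and 5 and 2 of 10 at 48 h passed against scramble, after si-A1 and si-A2. The share of all probes that passed this was not counted, so these counts cannot be read as a response of the members. The 2 siRNA comparisons of a time point share their scramble arrays.

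CCNG1, the cyclin G1 gene, was higher in both siRNA groups at 48 h and in si-A2 cells at 24 h, with both of its probes showing it. On probe A_33_P3232277 at 24 h, the 4 scramble arrays read 10.42, 10.56, 10.25 and 10.09. The 4 si-A1 arrays read 10.49, 10.35, 10.28 and 10.27, inside the scramble range. The 4 si-A2 arrays read 11.36, 11.03, 10.95 and 11.05, and each lay above every scramble and every si-A1 array. The si-A2 increase was 0.77 on the log2 scale, or 1.70-fold (SE 0.123, 95% interval 0.497 to 1.039, adjusted p = 0.00798), and was called. The si-A1 difference was 0.02 (95% interval -0.252 to 0.289, adjusted p = 0.963). The direct difference of si-A2 over si-A1 was 0.75 (SE 0.123, adjusted p = 0.0147), short of the threshold.

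The other CCNG1 probe, A_23_P58606, gave the same order of groups at 24 h. Scramble arrays read 11.23, 11.25, 11.17 and 11.41, si-A1 arrays 11.74, 11.41, 11.66 and 11.42, and si-A2 arrays 11.75, 12.13, 12.05 and 12.35. The 3 groups did not overlap, although the lowest si-A1 array stood only just above the highest scramble array and the highest si-A1 array just under the lowest si-A2 array. The si-A2 difference from scramble was 0.81 (SE 0.151, adjusted p = 0.0218) and that of si-A1 0.29 (95% interval -0.039 to 0.629, adjusted p = 0.44), and neither was called. Both slides gave the si-A2 difference alike, at 0.70 and 0.91 on this probe and at 0.71 and 0.83 on A_33_P3232277. The call of A_33_P3232277 at 24 h was lost when any 1 of the 12 arrays was left out (adjusted p 0.0116 to 0.0355, change 0.71 to 0.84), and with replicate number as a block (adjusted p = 0.03). With the 75th percentile scaling or normexp background correction both CCNG1 probes were called.

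At 48 h the CCNG1 values after the 2 siRNAs lay together. Probe A_33_P3232277 read 8.909, 8.898, 9.004 and 8.854 in scramble. It read 9.48, 9.44, 9.63 and 9.87 after si-A1, and 9.48, 9.62 and 9.87 on the 3 si-A2 arrays. All 7 siRNA arrays lay above all 4 scramble arrays. The increase was 0.69 after si-A1, or 1.61-fold (SE 0.104, 95% interval 0.453 to 0.922, adjusted p = 0.00314), and was called. After si-A2 the difference was as large, 0.71 (SE 0.113, adjusted p = 0.0175), and was not called. The unadjusted p of the 2 siRNAs were 9.73e-05 and 0.000145. si-A2 and si-A1 differed by 0.02, with a 95% interval of -0.233 to 0.279.

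Probe A_23_P58606 read 9.66, 9.72, 9.84 and 9.26 in scramble at 48 h, 10.21, 10.13, 10.22 and 10.27 after si-A1, and 10.35, 10.21 and 10.33 after si-A2. Again every siRNA array lay above every scramble array, by 0.59 on average after si-A1 (SE 0.126, adjusted p = 0.015) and 0.69 after si-A2 (SE 0.138, adjusted p = 0.0364). Within slides, the si-A1 difference was 0.56 and 0.82 on A_33_P3232277 and 0.48 and 0.69 on A_23_P58606. With replicate number as a block the si-A1 call of A_33_P3232277 was lost (adjusted p = 0.0105), as it was without scramble replicate 4 or without si-A1 replicate 1, 2 or 4 (adjusted p up to 0.0115, change 0.62 to 0.72). Over the arrays of a time point, the 2 CCNG1 probes moved together with a Pearson r of 0.80 over 12 arrays at 24 h and 0.94 over 11 at 48 h, which describes arrays that share the groups and carries no test.

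**Figure D1:**
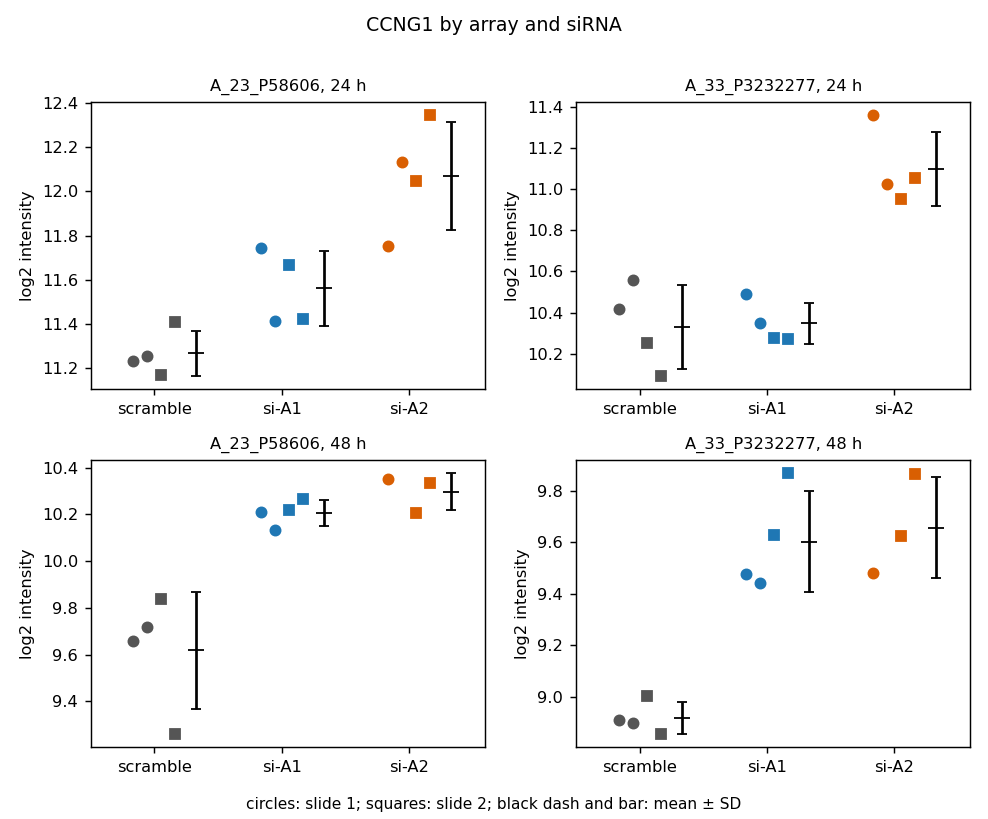
Log2 intensity of both CCNG1 probes on each array, 1 panel for a probe and time point, with scramble, si-A1 and si-A2 on the x axis, a point for an array and a bar for the group mean with SD. On both probes the si-A2 arrays lie above all scramble arrays at 24 h and 48 h, and the si-A1 arrays do so at 48 h.

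MDM2, the ligase at the centre of the loop, did not show this pattern on its brightest probe. A_33_P3361707 read 12.06, 11.82, 11.49 and 11.58 in scramble at 24 h, 11.53, 11.88, 11.47 and 11.68 after si-A1, and 11.86, 11.75, 11.80 and 11.61 after si-A2. All 3 groups overlapped. The difference from scramble was -0.10 after si-A1 (95% interval -0.405 to 0.208, adjusted p = 0.789) and 0.02 after si-A2 (95% interval -0.291 to 0.323, adjusted p = 0.977). At 48 h scramble arrays read 12.20, 12.13, 11.26 and 11.79, si-A1 arrays 12.50, 12.22, 11.98 and 11.86, and si-A2 arrays 12.18, 11.74 and 11.26. The groups overlapped here too, with 0.30 after si-A1 (95% interval -0.047 to 0.641, adjusted p = 0.239) and -0.02 after si-A2 (95% interval -0.395 to 0.355, adjusted p = 0.973).

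Dimmer MDM2 probes disagreed with the brightest and with each other. A_24_P925664 read 5.73, 5.76, 5.88 and 5.98 in scramble at 24 h, 5.42, 5.33, 5.43 and 4.74 after si-A1, and 6.55, 6.32, 6.20 and 6.63 after si-A2. The si-A1 arrays lay below and the si-A2 arrays above all scramble arrays. The changes were -0.61 (SE 0.179, adjusted p = 0.143) and 0.59 (SE 0.179, adjusted p = 0.176), neither called, and the direct difference of si-A2 over si-A1 was 1.20 (95% interval 0.801 to 1.592, adjusted p = 0.0102), just outside the threshold. That difference was called with the 75th percentile scaling (1.11, adjusted p = 0.00583) and with normexp (0.56, adjusted p = 0.00252), where it was smaller. On slides 1 and 2 the si-A1 difference was -0.37 and -0.85 and that of si-A2 0.69 and 0.48.

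At 48 h the same probe ran the other way for si-A1. Scramble arrays read 4.48, 5.02, 4.51 and 4.86, si-A1 arrays 5.42, 5.43, 5.42 and 5.78, and si-A2 arrays 5.005, 4.541 and 5.63. The si-A1 arrays now lay above all scramble arrays, by 0.79 (SE 0.232, adjusted p = 0.0492) or by 0.29 with normexp, and the si-A2 arrays overlapped scramble, with 0.33 (SE 0.253, adjusted p = 0.549). The change of the si-A1 difference between the time points was 1.40 (95% interval 0.785 to 2.015, adjusted p = 0.0314), not called at 0.01.

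MDM2 probe A_23_P502750, which had 10 spots on the 24 h arrays and 1 on the 48 h arrays, differed from scramble by 0.06 after si-A1 (SE 0.236) and -0.08 after si-A2 (SE 0.236) at 24 h. At 48 h it read 5.58, 5.98, 6.01 and 5.55 in scramble, 6.15, 6.22, 6.36 and 6.36 after si-A1, and 5.50, 5.62 and 5.38 after si-A2. The si-A1 arrays lay above all others, by 0.49 over scramble (SE 0.133, adjusted p = 0.0371). The si-A2 arrays were 0.79 below those of si-A1 on the log2 scale (difference -0.79, SE 0.145, adjusted p = 0.0187). With normexp these differences were 0.26 and -0.42. The fourth probe, A_19_P00810040, was read at 24 h only and lay 0.50 below scramble after si-A1 and 0.42 below after si-A2, with all groups overlapping (differences -0.50 and -0.42, SE 0.235, adjusted p = 0.403 and 0.541). The MDM2 probes correlated with each other between -0.38 and 0.19 over the 12 arrays of 24 h and between 0.28 and 0.48 over the 11 of 48 h. An MDM2 response therefore depended on the probe read, and which transcripts each probe reads was not examined because probe positions were not used here.

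**Figure D2:**
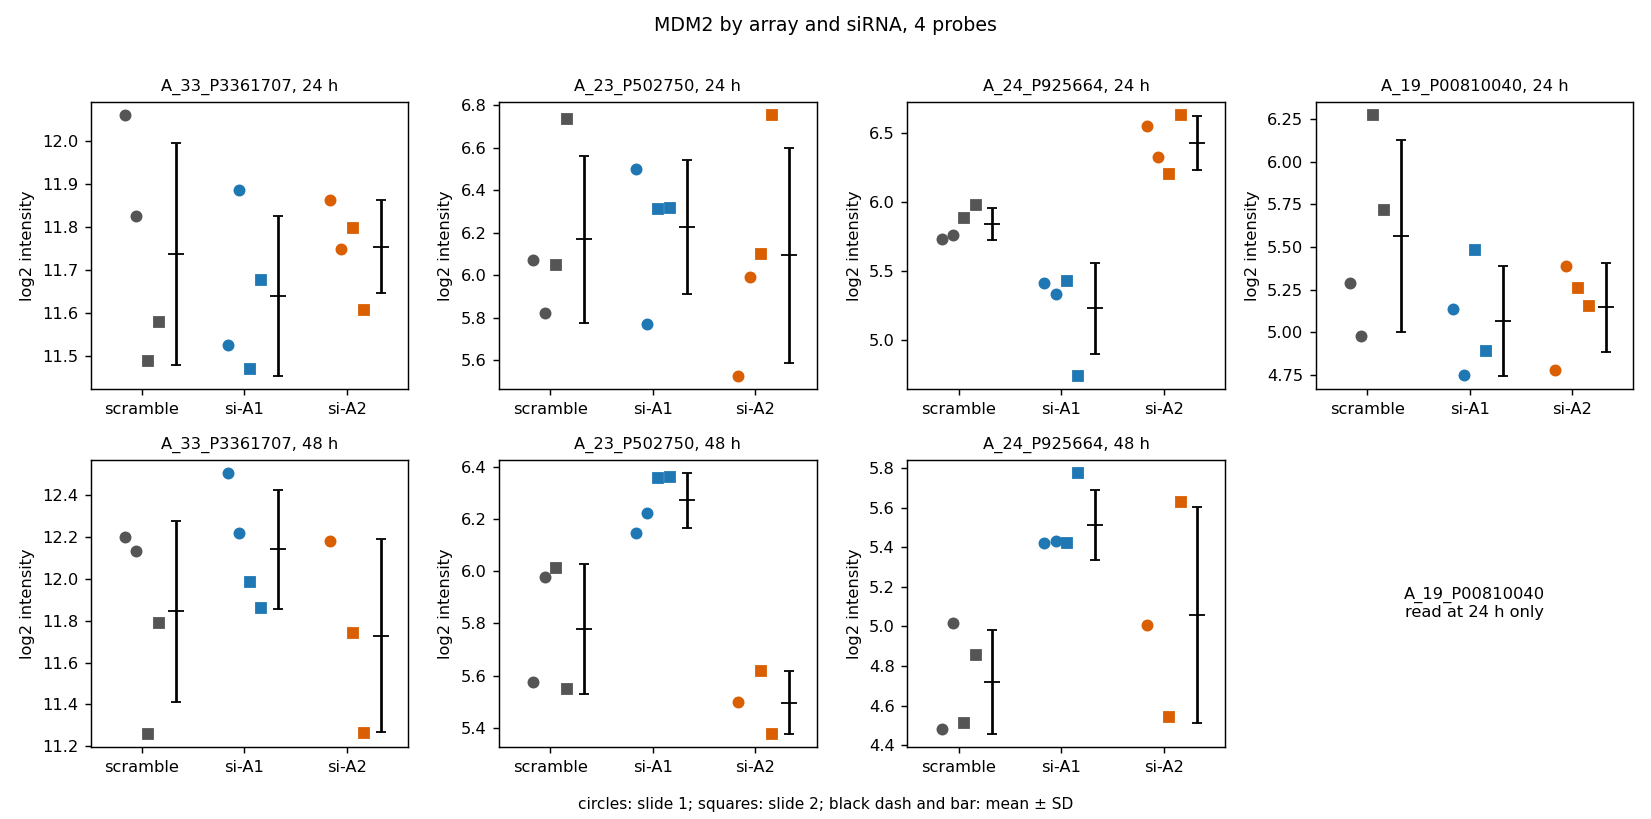
Log2 intensity of the MDM2 probes on each array, 1 panel for a probe and time point, with scramble, si-A1 and si-A2 on the x axis, a point for an array and a bar for the group mean with SD. The brightest probe overlaps in all groups, and A_24_P925664 separates the 3 groups at 24 h.

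MDM4, which binds p53 without degrading it by itself, gave no call at 24 h. Its 4 probes differed from scramble by -0.03 to 0.28 after si-A1 and by 0.08 to 0.17 after si-A2, with adjusted p of at least 0.376 and 0.722. The dim probe A_19_P00320721 was the one whose si-A1 arrays (6.06 to 6.16) all lay above the scramble arrays (5.67 to 6.02). At 48 h its 3 probes were 0.23 to 0.36 higher after si-A1 and lay between -0.18 and -0.09 of scramble after si-A2. A_33_P3389376 read 7.97, 8.03, 8.43 and 8.16 in scramble, 8.34, 8.48, 8.51 and 8.69 after si-A1, and 7.87, 8.02 and 8.12 after si-A2. The si-A1 difference was 0.36 (SE 0.094, adjusted p = 0.0327), below the size asked for, and the lowest si-A1 array lay under the highest scramble array. si-A2 arrays lay below all si-A1 arrays, with a difference of -0.54 (SE 0.102, 95% interval -0.772 to -0.309, adjusted p = 0.0201). The 3 MDM4 probes gave this difference with the same sign, at -0.35, -0.37 and -0.54.

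PPM1D, the WIP1 phosphatase gene, differed little from scramble. Its bright probe A_33_P3302696 read 9.33, 9.34, 9.22 and 9.52 in scramble at 24 h, 9.44, 9.42, 9.48 and 9.55 after si-A1, and 9.36, 9.53, 9.45 and 9.47 after si-A2. It read 9.42, 9.59, 9.61 and 9.63 in scramble at 48 h, 9.61, 9.59, 9.63 and 9.65 after si-A1, and 9.49, 9.55 and 9.36 after si-A2. siRNA arrays lay inside or close to the scramble range throughout. Differences from scramble were 0.12 and 0.10 at 24 h and 0.06 and -0.10 at 48 h in si-A1 and si-A2 cells, and the 95% intervals of all 4 lay within -0.308 and 0.373. The dimmer probe A_32_P150030 was less precise, with 0.39 after si-A2 at 24 h (95% interval -0.06 to 0.835) and -0.00 and 0.07 at 48 h.

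**Figure D3:**
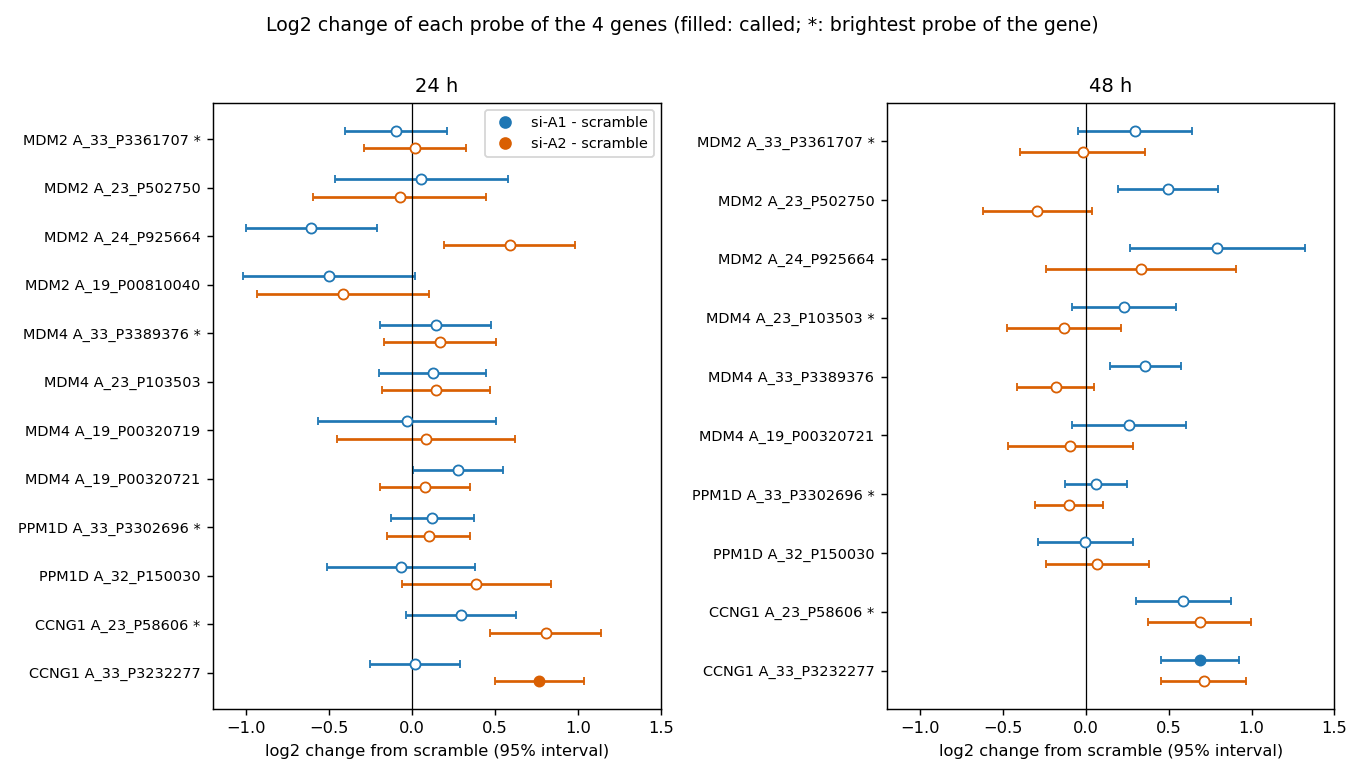
Log2 change from scramble of each member probe (rows), with 95% intervals from limma as bars, for each siRNA and time point. The 2 CCNG1 probes sit together to the right of 0 for si-A2 at 24 h and for both siRNAs at 48 h. Points of the bright PPM1D probe stay near 0, the dimmer one stands at 0.39 for si-A2 at 24 h, and the MDM2 probes spread to both sides.

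Counted without a test, group ranges did not overlap for 3 of the 12 member probes in each 24 h comparison with scramble, where 9.32% of all probes did not overlap for si-A1 and 7.63% for si-A2. At 48 h they did not overlap for 4 of 10 after si-A1, beside 15.6% of all probes, and for 2 of 10 after si-A2, beside 11.3%. The 2 at 48 h after si-A2 were both CCNG1 probes. Tested for a change between time points, 0 of the 10 shared member probes were called for either siRNA, beside 0.159% and 0.0335% of the 35790 shared probes. CCNG1 probe A_33_P3232277 came near for si-A1, whose difference from scramble was larger at 48 h by 0.66 (95% interval 0.347 to 0.98, adjusted p = 0.0459). The other CCNG1 probe gave 0.29 (adjusted p = 0.554). Time and array version changed together and cannot be told apart here.

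CCNG1 was next read against each other member on the same array, in log2 ratios of brightest probes. CCNG1 was chosen for this after its values had been seen, so the ratios are a description and carry no test. The ratio over MDM2 was 0.79 higher after si-A2 than in scramble at 24 h, with every si-A2 array above every scramble array. At 48 h the ratio over MDM2 was 0.29 higher after si-A1 and 0.79 higher after si-A2, and both groups overlapped scramble. The ratio over PPM1D was higher by 0.71 after si-A2 at 24 h, by 0.53 after si-A1 at 48 h and by 0.77 after si-A2 at 48 h, with no overlap. The ratio over MDM4 was higher by 0.64, 0.36 and 0.81 in these comparisons, with overlap at 24 h and none at 48 h. After si-A1 at 24 h the ratios over MDM2, MDM4 and PPM1D were higher by 0.39, 0.15 and 0.17, and all overlapped scramble. A ratio within an array does not show which of its genes changed.

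**Figure D4:**
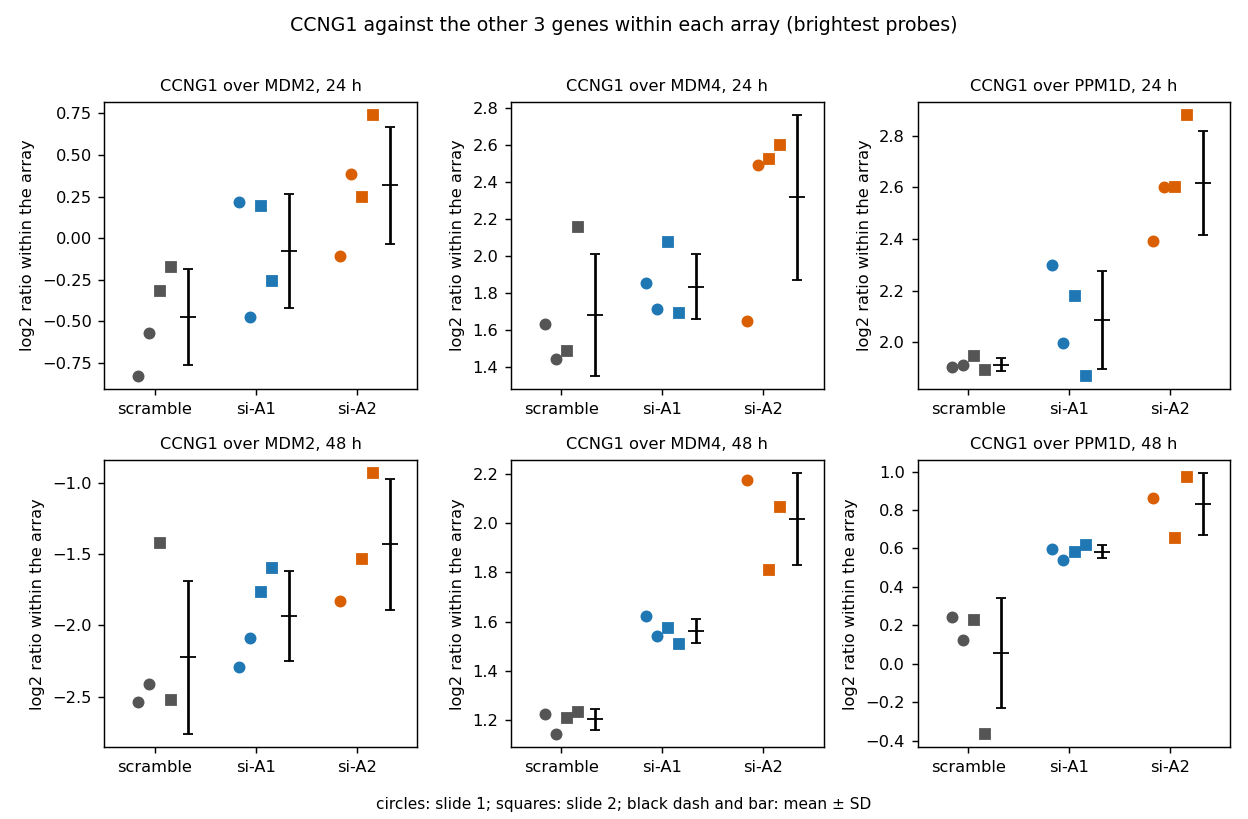
Log2 ratio of the brightest CCNG1 probe over the brightest probe of MDM2, MDM4 and PPM1D on each array, by siRNA and time point, with circles for slide 1, squares for slide 2 and bars for group means with SD. The MDM4 probe was A_33_P3389376 at 24 h and A_23_P103503 at 48 h. At 24 h the si-A2 arrays lie above the scramble arrays in the ratios over MDM2 and PPM1D, and at 48 h the ratios over MDM2 overlap.

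Genes around the loop were read from lists, 1 brightest probe a gene, and these lists were drawn up with results of these arrays known, so their counts are a description. For the lists and the shares of all genes beside them, rose and fell stand for called higher and called lower. Of 26 measured genes outside the loop that p53 is known to activate, 9 rose and 0 fell after si-A2 at 24 h, where 0.144% of all genes rose. The list's median log2 change was 0.51 beside 0.03 over all genes. CDKN1A, the cell cycle inhibitor p21, rose by 1.79 (SE 0.148, adjusted p = 0.000103), ZMAT3, an RNA-binding p53 target, by 1.38, and BTG2, an anti-proliferative gene, by 1.34. FAS, a death receptor, rose by 1.32, and RRM2B, a ribonucleotide reductase subunit, by 1.20. SPATA18, FDXR, TP53I3 and TP53INP1 rose by 1.35, 1.18, 1.18 and 1.06. CCNG1, at 0.77 and 0.81, stood below all 9 on this scale. After si-A1 at 24 h, 2 of 26 rose, FAS by 0.88 and TP53INP1 by 0.75, where 0.123% of all genes rose, and the list's median was 0.10 beside 0.04 over all genes.

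After si-A1 at 48 h, 9 of these 26 genes rose and 1 fell, where 2.29% of all genes rose and 6.17% fell. The list's median was 0.53 beside 0.02 over all genes. ZMAT3 rose by 2.37, CDKN1A by 2.10 (SE 0.181, adjusted p = 0.000156), SPATA18 by 1.79 and the kinase gene PLK2 by 1.44. GADD45A, TP53I3, FAS, FDXR and RRM2B rose by 0.99, 0.98, 0.82, 0.74 and 0.61, whereas TRIAP1, a p53 target that acts in mitochondria, fell by 0.61. Called or not, 23 of the 26 lay above 0 and 3 below. The lowest change of the list was -1.06, on a gene that was not called. After si-A2 at 48 h, 3 rose, SPATA18 by 1.94, GADD45A, a damage-response gene, by 1.06 and RRM2B by 0.88, where 0.0826% of all genes rose, with a median of 0.36 beside -0.01 over all genes. There, CDKN1A stood at 1.22 (adjusted p = 0.0181). With replicate number as a block, 0 genes of the list were called higher after si-A1 and 6 after si-A2 at 24 h, and 6 after si-A1 and 0 after si-A2 at 48 h. With any 1 array left out, si-A1 gave a count of 0 to 1 at 24 h and of 4 to 9 at 48 h, and si-A2 gave 6 to 10 at 24 h and 0 at 48 h. Over all settings run, these 4 counts ranged from 0 to 2, 1 to 11, 0 to 11 and 0 to 7.

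A further list took 9 measured genes for proteins that WIP1 acts on or that serve in the damage response. It held CHEK1, CHEK2, ATR, PRKDC, MAPK14, HIPK2, H2AX, TP53BP1 and MDC1. The kinase gene ATM was not in it. All 9 had a change below 0 in each of the 4 comparisons with scramble. Of all genes, 54.7% had a change above 0 in each 24 h comparison, and 52.6% after si-A1 and 48.7% after si-A2 at 48 h. Against scramble, 2 of 9 fell in each 24 h comparison, where 1.69% of all genes fell after si-A1 and 1.49% after si-A2, and 4 of 9 fell after si-A1 at 48 h, where 6.17% did. After si-A2 at 48 h 0 of 9 were called lower, beside 0.619% of all genes. With 1 array left out, each 24 h count was 1 or 2 and the 48 h counts were 4 and 0. Over all settings run, the 24 h counts ranged from 0 to 3 for si-A1 and from 1 to 4 for si-A2, and the 48 h counts from 0 to 5 and from 0 to 3. CHEK1, a checkpoint kinase, fell by 1.72 in si-A1 cells and fell by 2.00 in si-A2 cells at 24 h, and it fell by 2.37 in si-A1 cells at 48 h. H2AX, the histone phosphorylated at breaks, fell by 1.88 after si-A1 at 24 h and fell by 2.72 at 48 h. MDC1, which binds that mark, fell by 1.35 after si-A2 at 24 h and fell by 1.57 after si-A1 at 48 h, and the kinase CHEK2 fell by 1.41 after si-A1 at 48 h. The member nearest to 0 was TP53BP1 at 24 h, at -0.01 and -0.09, and HIPK2 and ATR at 48 h, at -0.01 and -0.11. No member of this list rose against scramble, and its median after si-A2 at 48 h was -0.47. The medians in the other comparisons were -0.40 after si-A1 and -0.75 after si-A2 at 24 h, and -0.54 after si-A1 at 48 h.

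Few of the other regulators were called. After si-A1 and si-A2, 1.69% and 1.49% of all genes were called lower at 24 h, and 6.17% and 0.619% at 48 h. Of 12 further genes that act on p53 or MDM2, mostly ubiquitin ligases and deubiquitinases, 0 were called in any comparison with scramble. Their medians lay between -0.23 and 0.00. In the same order, 6 and 9 of the 12 lay below 0 at 24 h, and 10 and 12 at 48 h. Of all genes, 54.7% lay above 0 in each 24 h comparison, and 52.6% and 48.7% at 48 h. Of 10 genes listed for proteins that bind MDM2 or act on it in either direction, YY1 fell by 0.63 after si-A1 at 48 h (adjusted p = 0.00208). No other gene of that list was called. RPS27L, a ribosomal protein that p53 is known to activate, stood at 0.78 and 1.13 after si-A2 at 24 h and 48 h (adjusted p = 0.0501 and 0.0175). Of 11 genes for cyclin G2, GAK and PP2A subunits, PPP2R5E fell by 0.70 after si-A1 at 48 h (adjusted p = 0.00838) and no other was called. CCNG2, the closest relative of CCNG1, stood at 0.53 and -0.23 at 24 h and at 0.02 and -0.40 at 48 h after si-A1 and si-A2, none called. Beside these values, 2 of 7 luminal markers were called lower after si-A1 at 48 h, where 6.17% of all genes were, among them KLK2 at -1.07. In the other comparisons with scramble 0 of 7 were called. At 48 h, 5 of 7 lay below 0 after si-A1 and 6 of 7 after si-A2. Of the markers of other cell types, 0 of the 6 tested at 24 h and of the 5 tested at 48 h were called. The part of cell identity in these results was not tested.

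**Figure D5:**
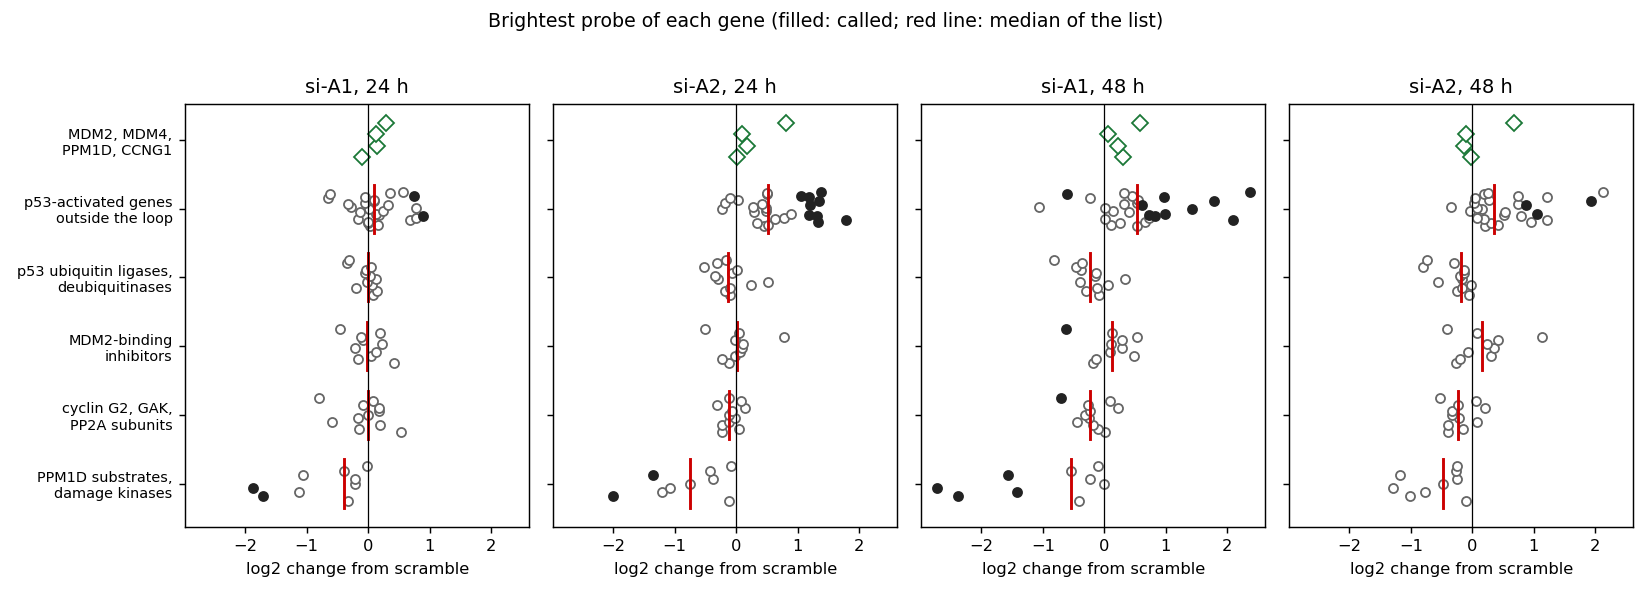
Log2 change from scramble of the genes in each list and of the 4 members (points, 1 brightest probe a gene, filled where called, with the list median as a red line), for both siRNAs and time points, on a shared x axis. The medians of the p53-activated genes lie to the right of 0, nearest to it for si-A1 at 24 h at 0.10, and the damage genes sit to the left of 0.

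Likeness of pattern was measured by Pearson r of slide-centred log2 intensity over the 12 arrays of 24 h between the brightest probes of 16349 genes, and the 3 highest were then read over the 11 arrays of 48 h. CCNG1 was most like REEP5, EBNA1BP2 and ADK at 24 h, with r of 0.97, 0.95 and 0.94, but at 48 h these gave 0.05, -0.20 and 0.18. MDM2 was most like TBC1D28, DLGAP1-AS1 and GNG7 (0.93, 0.93 and 0.86 at 24 h, then 0.46, 0.26 and 0.81). MDM4 was most like KMT2C, KIAA1143 and DENND1A (0.94, 0.92 and 0.92, then 0.66, 0.06 and 0.49), and PPM1D was most like GP6, OR4X1 and KRTAP5-9 (0.96, 0.94 and 0.93, then 0.27, 0.37 and 0.72). The arrays share groups and slides, so these values carry no test, and most of the likeness at 24 h was not found again at 48 h. The brightest probe was chosen at each time point and could differ between them. For MDM4 it was A_33_P3389376 at 24 h and A_23_P103503 at 48 h.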

How the data were processed

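Total RNA of LNCaP cells was hybridised to one-colour Agilent SurePrint G3 arrays, v2 at 24 h and v3 at 48 h. The deposited scanner files hold the intensity of each spot as the authors extracted it with Feature Extraction 11.5.1.1, background-subtracted and not normalized between arrays. The deposited series table holds log2 values that the authors normalized with limma 3.34.8 in R 3.4.3, used here as an alternative only. Processed intensities were taken to log2 and quantile-normalized within a time point, flagged spots were set aside and spots of a probe were averaged. A probe was tested if it exceeded the mean plus 3 SD of the negative controls on at least 3 arrays, which kept 44862 of 50599 probes at 24 h and 45155 of 58201 at 48 h. The study's cut-off of 0.5 on the interquartile range was kept as an alternative, since it leaves 2 of 12 and 3 of 10 member probes.

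Groups came from the sample labels. Differences were fitted in limma 3.58.1 (R 4.3.3) with 3 groups and slide as an additive term for each time point, with Benjamini-Hochberg adjustment over all tested probes. The change of an effect between times was fitted on the 35790 shared probes with slides nested in time. The fits were tested on simulated data. Precision is limited by the number of arrays. Same-numbered samples at 48 h deviated together (r 0.18 to 0.35 in 10 pairs, all above 0.1), as did other pairs on the same slide (0.10 to 0.29). The main fits held slide but not replicate number. A pairing by replicate number was read from the data and not from the labels, and entered only as an alternative with replicate number as a block. No 2 arrays of a group were duplicates (r of levels 0.954 to 0.988).

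Probes were named by RefSeq accession, which named 57.4% of probes at 24 h and 53.4% at 48 h. Named genes were the 4 members with all their probes, the genes of each list called in a comparison with scramble (at most 10) and the gene nearest to 0, the 3 genes most like each member, and the TAPIR-2 probes. The brightest probe of a time point stood for a gene at that time point. The members and lists were chosen with earlier results of these data known, and the ratios within an array and the promoter search were chosen after the values had been seen. The alternatives were 75th percentile scaling, normexp background correction on median spot and background signals, the series table, other filters on dim probes, no slide term, slide as a random block, replicate number as a block, fits of only the 2 groups compared, the median over the probes of a gene, a log2 change of at least 1, the dim array kept and each array left out. Values of some marker genes are left out of the text.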

Additional observations from a re-analysis of the deposited data

Results flagged for a closer look

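Of 56 groups of 4 arrays, 4 held an array set apart from its group, with a gap to the nearest array that took more of the group's range than Dixon's 95% critical value, and chance alone marks about 1 group in 20. For MDM2 probe A_24_P925664 the ratio was 0.859 after si-A1 at 24 h, where replicate 4 was low at 4.74, and 0.969 after si-A1 at 48 h, where replicate 4 was high at 5.78. For MDM4 probe A_19_P00320721 in scramble at 48 h it was 0.844, and for PPM1D probe A_33_P3302696 in scramble at 48 h it was 0.831, where replicate 1 was low at 9.42.

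The difference of si-A1 from scramble changed between 24 h and 48 h on 2 member probes at an adjusted p under 0.05 in limma, although neither passed 0.01. MDM2 probe A_24_P925664 moved by 1.40 on the log2 scale (adjusted p = 0.0314) and by 0.53 with normexp (adjusted p = 0.0201). CCNG1 probe A_33_P3232277 moved by 0.663 (adjusted p = 0.0459), and by 0.62 with normexp (adjusted p = 0.00848), which was then called. Time and array version cannot be told apart in both.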

How the results depend on the processing

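Both CCNG1 probes stayed above scramble after si-A2 at both times and after si-A1 at 48 h in all settings, with 1 exception. Probe A_23_P58606 stood at -0.22 after si-A2 at 48 h with the dim si-A2 array kept. The lowest value of A_33_P3232277 in that comparison was 0.03. The number of called member probes moved between 0 and 2. Called after si-A2 at 24 h (1 reported) were 2 with the 75th percentile scaling, normexp and the well-above-background filter, and 0 with the interquartile filter, a log2 change of at least 1, no slide term, only the 2 groups compared, the replicate block, slide as a random block, and each array left out in turn. Called between si-A2 and si-A1 at 24 h (0 reported) were 1 with the 75th percentile scaling, no slide term and the random block, 2 with no filter on dim probes, normexp and the well-above-background filter, and 0 to 1 with an array left out, the 1 being without scramble replicate 3. Called after si-A1 at 48 h (1 reported) were 2 with the 75th percentile scaling, normexp and the well-above-background filter, 0 with the dim array kept, a change of at least 1, no slide term and the replicate block, and 0 to 1 with an array left out. After si-A2 at 48 h (0 reported) 2 were called with normexp and 1 with the well-above-background filter, between si-A2 and si-A1 at 48 h (0 reported) 2 with the well-above-background filter, and for the change of the si-A1 effect with time (0 reported) 1 with normexp.

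CCNG1 probe A_33_P3232277 lost its call after si-A2 at 24 h with its change at 0.77 under the settings listed with 0 calls, and at 0.71 to 0.84 with an array left out. After si-A1 at 48 h it lost its call at 0.70 with the dim array kept and at 0.69 with a change of at least 1, no slide term and the replicate block, and at 0.62 to 0.72 with an array left out. After si-A2 at 48 h it was called at 0.70 with normexp and 0.71 with the well-above-background filter. Probe A_23_P58606 was called after si-A2 at 24 h at 0.91 with the 75th percentile scaling, 0.79 as the median of both probes, 0.78 with normexp and 0.81 with the well-above-background filter. It was called after si-A1 at 48 h at 0.62, 0.64, 0.58 and 0.59 in the same order, and after si-A2 at 48 h at 0.65 with normexp. The cause was not tested, but the well-above-background and interquartile filters change only which probes are tested.

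With the dim array kept, the si-A2 difference from scramble at 48 h turned from 0.69 to -0.22 for CCNG1 probe A_23_P58606, from 0.33 to -0.61 for MDM2 probe A_24_P925664 and from 0.07 to -1.05 for PPM1D probe A_32_P150030. The difference of si-A2 from si-A1 turned from 0.10 to -0.81 and from 0.02 to -0.68 for CCNG1 probes A_23_P58606 and A_33_P3232277, and from 0.07 to -1.05 for PPM1D probe A_32_P150030. MDM4 probe A_19_P00320719 turned from -0.03 to 0.27 after si-A1 at 24 h without scramble replicate 3, within a range of -0.18 to 0.27 over the arrays left out. PPM1D between si-A2 and si-A1 at 24 h turned from -0.02 to 0.22 as the median over its probes. The ratio of MDM2 probe A_24_P925664 over the brightest MDM2 probe turned from 0.50 to -0.04 after si-A1 at 48 h with normexp. A change of sign was counted only where a value exceeded its SE, and probes that the interquartile filter removed have no value under it. The 75th percentile scaling moved the median of all probes to 0.12 and 0.11 for si-A1 at 24 h and 48 h, from 0.05 and 0.05.

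At 24 h same-numbered samples did not deviate together (r -0.15 to 0.16 in 12 pairs). The pairing by replicate block called 0 member probes in all comparisons and changed no call of a member other than those of CCNG1 probe A_33_P3232277 (adjusted p = 0.03 at 24 h and 0.0105 at 48 h).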
